A study of Mus musculus with 6 samples.

Results

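Transforming growth factor-β (TGF-β) signalling was examined in KPC cells through 10 genes chosen by symbol, namely the ligands Tgfb1, Tgfb2 and Tgfb3, the receptors Tgfbr1 and Tgfbr2, the signal transducers Smad2, Smad3 and Smad4, the inhibitor Smad7 and the co-repressor Tgif1. Of these, 9 were among the 10616 genes of the count table, and Tgfb2 was not analysed here. All 9 passed the filter on low counts. KPC is a mouse pancreatic ductal adenocarcinoma (PDAC) line, grown here as a monolayer. The cells had been infected with a lentivirus that expressed a short hairpin RNA, either one against Brca2 (shBrca2, n = 3 libraries) or a non-targeting one (shControl, n = 3), so that both groups carried the vector and both were selected with puromycin. For each library 10000 live cells were sorted, polyadenylated RNA was captured, and libraries of transcript 3′ ends were sequenced. The methods name a commercial Brca2 hairpin reagent in the pLKO.1 vector, while its sequence, and whether the infected cells were a pool or 1 clone, are not given in the sources used here. The labels do not say whether the 3 libraries of a group came from separate cultures, and the study describes cultured cells in one place and numbers of mice in another, so what a replicate is remains unclear and the p-values measure the spread between these libraries, which may be technical.

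TGF-β is secreted in a latent complex with its own propeptide and a latent TGF-β binding protein, and must be released before it can act. The freed ligand binds the type II receptor, which phosphorylates the type I receptor, which in turn phosphorylates Smad2 and Smad3. These join Smad4, enter the nucleus and act on target genes, while Smad7 blocks the receptors and Tgif1 recruits repressors to the Smads. In PDAC the pathway is known for growth arrest in early lesions, for epithelial to mesenchymal transition later on, for a matrix-rich stroma, and for frequent loss of SMAD4 in patients.

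Total counts ranged from 1519340 to 2452467 per library. On the first principal component of the libraries, which held 41.1% of the variance, shControl replicate 3 stood apart at 37.98 while the other libraries lay between -21.95 and 13.56, and each value below is therefore also read without it where that changes a call or moves a TGF-β gene's value markedly. A second component held 23.7%, and there shControl replicate 1 stood apart at -31.68 while the other libraries lay between -5.79 and 17.73. Brca2 itself, the hairpin's target, had normalized counts (counts divided by the library's size factor) of 33.3, 43.6 and 32.6 in shControl cells. In shBrca2 cells they were 13.6, 10.4 and 12.2, which is -1.61 ± 0.44 (SE) on the log2 scale (adjusted p = 0.0290). Its call was lost without shBrca2 replicate 2 (adjusted p = 0.152), shBrca2 replicate 3 (0.233) or shControl replicate 2 (0.371), and with TMM scaling, where DESeq2 gave Brca2 no adjusted p. The labelled cell type was checked against markers of ductal epithelium, of which 9 of 10 were analysed here. Their summed normalized counts were 22040 to 23000 in shBrca2 and 23170 to 27200 in shControl libraries, while Epcam, a defining epithelial marker, was close to absent at 3.78 to 9.09. Of 10 fibroblast and stellate markers 2 were analysed here, Col1a2 and Thy1, with sums of 17.7 to 22.7 in shBrca2 and 13.8 to 42.4 in shControl libraries. Of 10 immune markers 1 was analysed here, Cd68, at 12.2 to 20.4 and 11.1 to 16.8, and of 6 endothelial markers none was.

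A gene was called changed where its adjusted p was under 0.1, its log2 fold change was beyond 0.5 in either direction and its mean normalized count was over 5, and by this rule 0 of the 9 TGF-β genes were called. Over all 9997 genes tested, 1.27% were called, 0.77% higher and 0.5% lower in shBrca2 cells. DESeq2 gave the 9 genes adjusted p-values from 0.537 to 0.989, edgeR also called 0 of them, and 1 of the 9 had an unadjusted p under 0.05, against 8.66% of all genes. The log2 fold changes were below 0 for 9 of 9 genes when all 6 libraries were used, but that of Tgfbr2 turned to 0.01 without shBrca2 replicate 2, and that of Smad7 turned positive with 1 surrogate variable and in 4 of the 6 fits that left out a library. Their median was -0.36, against -0.00094 among all genes tested, of which 50.2% lay below 0 and 49.8% above it. As these are bulk libraries, fewer cells expressing a gene and less of its RNA per cell cannot be told apart.

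**Figure D1:**
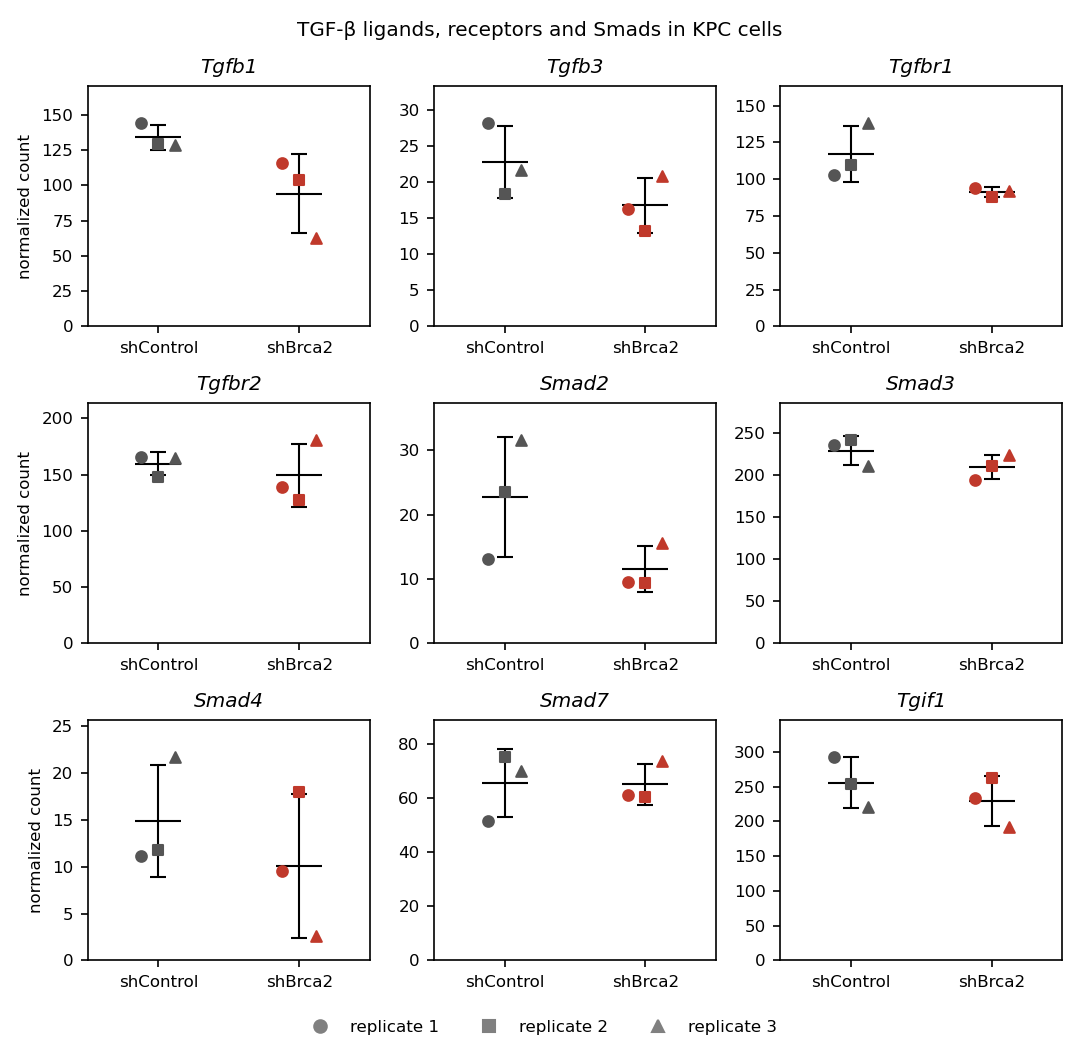
Normalized counts (y axis) of the 9 TGF-β genes in each shControl (grey) and shBrca2 (red) library, with one panel per gene, marker shapes for replicates, a long bar for the mean of 3 libraries and whiskers for 1 SD. The groups separate for Tgfb1 and Tgfbr1 only, and none of the 9 genes was called.

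Among the ligands, Tgfb1, the isoform that most carcinomas secrete, had the smallest p of the 9 genes. Its normalized counts were 115.8, 104.0 and 62.7 in shBrca2 and 144.5, 129.1 and 128.5 in shControl libraries. All shBrca2 values lay below all shControl values, and shBrca2 replicate 3 was by far the lowest. The means were 94.1 ± 27.9 (SD, n = 3) and 134 ± 9.04 (n = 3), a fold of 0.696 with a 95% interval of 0.494 to 0.981 and a log2 fold change of -0.52 ± 0.25 (SE). The unadjusted p was 0.0389 and the adjusted p by DESeq2 was 0.537, so Tgfb1 was not called. Without shBrca2 replicate 3 the log2 difference was -0.29, with an adjusted p of 0.993, and without any other single library it was between -0.69 and -0.47.

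Tgfb3, a second isoform with the same receptors, had normalized counts of 16.3, 13.2 and 20.9 in shBrca2 and of 28.3, 18.4 and 21.8 in shControl libraries. The groups overlapped, and with a log2 fold change of -0.43 ± 0.46 (SE; adjusted p = 0.904) its 95% interval ran from a fold of 0.395 to 1.39. Differences inside that interval were not resolved.

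Of the receptors, Tgfbr1, the type I receptor kinase that phosphorylates Smad2 and Smad3, had normalized counts of 94.0, 87.9 and 92.2 in shBrca2 and of 103.1, 109.9 and 138.4 in shControl libraries. The groups did not overlap, although the gap between the highest shBrca2 and the lowest shControl library was small, and shControl replicate 3 was the highest. The means were 91.4 ± 3.13 and 117 ± 18.8, with a fold of 0.780 (95% interval 0.568 to 1.07) and an adjusted p of 0.744. Without shControl replicate 3 the log2 fold change went from -0.36 to -0.23.

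Tgfbr2, the type II receptor that binds the ligand first, had 138.9, 127.6 and 181.0 normalized counts in shBrca2 and 165.7, 147.6 and 165.1 in shControl libraries. The lowest and the highest value were both from shBrca2 cells. With a log2 fold change of -0.09 ± 0.21 (SE; adjusted p = 0.973), its interval, a fold of 0.703 to 1.25, held no change as large as 1.5-fold in either direction.

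**Figure D2:**
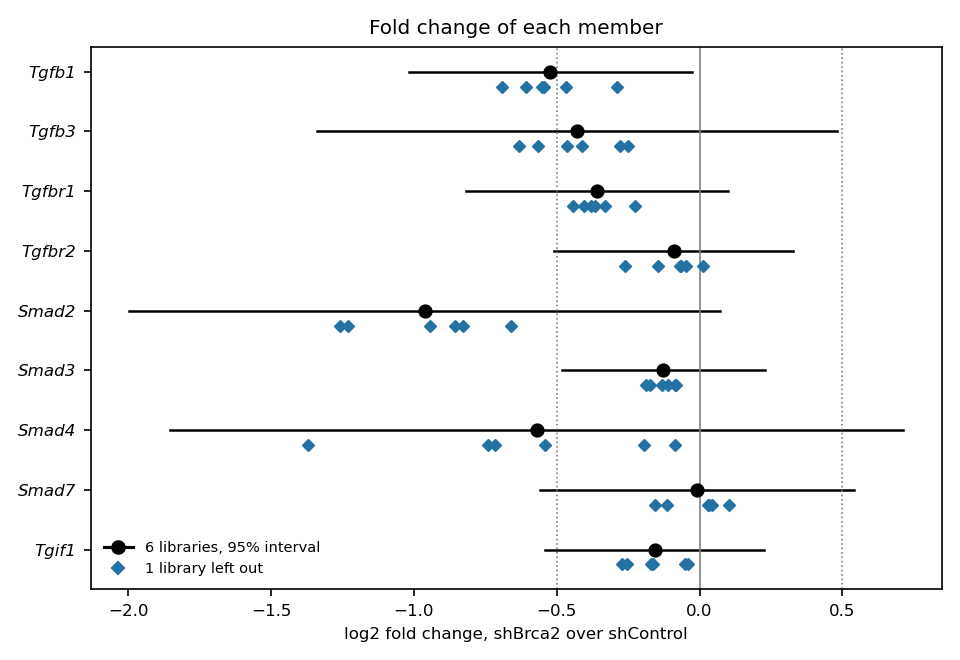
Log2 fold change of each TGF-β gene, shBrca2 over shControl (x axis), with the value from all 6 libraries as a black circle with its 95% interval and each value with 1 library left out as a blue diamond; dotted lines mark the fold minimum of 0.5 on either side. All circles lie below 0, with the diamonds of Tgfbr2 and Smad7 crossing it, and the widest intervals are those of Smad2 and Smad4.

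Of the receptor-regulated Smads, Smad2 had the largest fold change of the 9 genes and one of the lowest counts. Its normalized counts were 9.53, 9.45 and 15.7 in shBrca2 and 13.1, 23.5 and 31.6 in shControl libraries, which overlapped because shControl replicate 1 lay below shBrca2 replicate 3. The means of 11.6 ± 3.56 and 22.8 ± 9.27 gave a fold of 0.513, with an interval of 0.251 to 1.05 and an adjusted p of 0.631. Its log2 value of -0.96 ± 0.53 (SE) moved to -0.66 without shControl replicate 3 and to -1.26 without shBrca2 replicate 3.

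Smad3, which binds DNA at Smad-responsive genes, was counted far more often than Smad2. It had 194.8, 210.8 and 223.6 normalized counts in shBrca2 and 235.4, 242.4 and 210.6 in shControl libraries. The groups overlapped, the log2 fold change was -0.13 ± 0.18 (SE; adjusted p = 0.939), and the interval of a fold of 0.716 to 1.17 was the narrowest among the Smads.

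Smad4, the partner shared by the TGF-β and BMP branches and a tumor suppressor often lost in PDAC, was the least counted of the 9 genes. Its raw counts were 7, 19 and 3 in shBrca2 and 11, 14 and 22 in shControl libraries, so that reads of Smad4 were present in every library. The normalized counts were 9.53, 18.0 and 2.61 against 11.1, 11.7 and 21.8, and the groups overlapped. Its log2 value of -0.57 ± 0.66 (SE; adjusted p = 0.915) was -0.09 when shBrca2 replicate 3 was left out, -0.20 when shControl replicate 3 was, and -1.37 when shBrca2 replicate 2 was. Its interval ran from a fold of 0.277 to 1.64, and differences inside it were not resolved.

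Smad7, the inhibitory Smad that TGF-β itself induces as feedback, had 61.3, 60.5 and 74.0 normalized counts in shBrca2 and 51.5, 75.5 and 70.2 in shControl libraries. Its means were the closest of the 9 genes, 65.3 ± 7.55 and 65.7 ± 12.6, with a fold between 0.678 and 1.45 at 95% and an adjusted p of 0.989. Tgif1, a homeodomain protein that represses Smad-driven transcription, had 232.9, 262.8 and 192.3 normalized counts in shBrca2 and 293.0, 253.3 and 220.5 in shControl libraries. The groups overlapped, and the fold was 0.897 (95% interval 0.687 to 1.17; adjusted p = 0.925). On the log2 scale Tgif1 stood at -0.16, and at -0.25 without shControl replicate 3.

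Across the 9 genes, normalized counts did not overlap for 2, or 22.2%, both lower in shBrca2, where 10.4% of all genes tested did so in that direction and 20.6% in either. The upper end of the 95% interval was under a 1.5-fold rise for 8 genes, Smad4 being the exception, and the lower end was above a fold of 0.5 for 5 genes. The mean normalized count was over 50 for 6 genes and under 20 for Tgfb3, Smad2 and Smad4. On the scale of 3′ end counts, which are taken at transcript ends and were not divided by length, the 9 genes spanned 6.04 to 117 CPM (counts scaled to the library total). By library, shBrca2 replicate 2 held the lowest value for 4 of the 9 genes and shBrca2 replicate 3 for 3, while shControl replicates 1 and 3 each held the highest value for 3.

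The positions below are those of the RefSeq annotation of GRCm38.p6, the build named mm10 in the submitters' notes. Tgfb1 lies at chr7:25687002-25705077, Tgfb3 at chr12:86056743-86079041, Tgfbr1 at chr4:47353222-47414926, Tgfbr2 at chr9:116087695-116175363, Smad3 at chr9:63646766-63757994 and Tgif1 at chr17:70844205-70853532. Smad2, Smad4 and Smad7 share chromosome 18. All are protein-coding genes, and Tgfbr1, Tgfbr2, Smad3 and Smad7 each overlap a long noncoding RNA gene. Whether counting used strand is not given in the sources used here, so reads from such a pair may have been counted together, and the values of these 4 genes are uncertain to that extent.

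Other genes of the pathway were read from 6 lists, of ligand latency and activation, receptor partners, Smad regulators, the BMP and activin branch, induced targets and repressed targets. Together they name 120 genes, of which 82 were tested, and 4 of these (4.88%, against 1.27% of all genes) were called, with 3 lower and 1 higher in shBrca2 cells. Those lower were Fn1, Thbs1 and Ltbp4, and Id2 was the one that rose. The count was 2 without shBrca2 replicate 2, 2 without shBrca2 replicate 3, and 7 with 1 surrogate variable in the model. The share of 1.27% belongs only to the fit that called 4. No such share is given for edgeR or the other alternatives, so their counts of called genes have no background here.

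**Figure D3:**
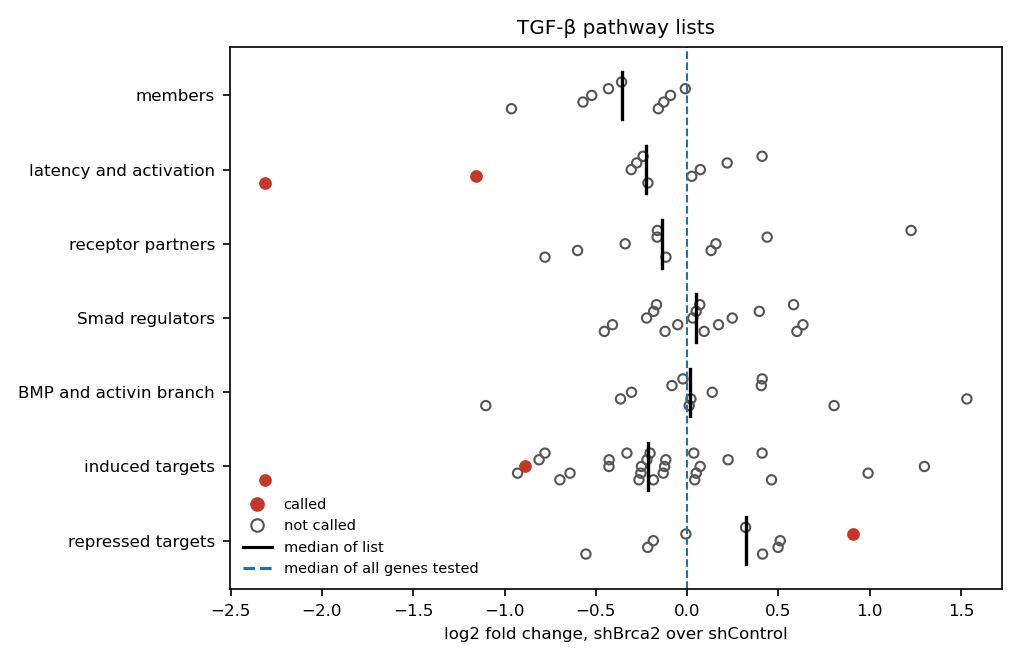
Log2 fold change (x axis, shBrca2 over shControl) of each tested gene in the 9 TGF-β genes (members) and the 6 pathway lists, with called genes in red, a black bar for the list's median and a dashed line for the median of all genes tested; Thbs1 and other genes on 2 lists are drawn in both. The median is -0.21 for induced targets and 0.32 for repressed targets.

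Among 10 tested genes of latency and activation, 2 fell and 0 rose (20% called, against 1.27% of all genes tested). The median log2 fold change was -0.23. Ltbp4, a matrix protein that binds the latent complex of TGF-β1, had normalized counts of 69.5, 50.1 and 27.8 in shBrca2 and of 91.9, 107.3 and 122.6 in shControl libraries, with no overlap. Its log2 fold change was -1.15 ± 0.31 (SE) and the adjusted p by DESeq2 was 0.0253. By edgeR the adjusted p was 0.108, and the call was also lost without shBrca2 replicate 2 (adjusted p = 0.152), shBrca2 replicate 3 (0.397), shControl replicate 2 (0.327) or shControl replicate 3 (0.202). Thbs1, thrombospondin-1, which can release active TGF-β from the latent complex and is also an induced target, had raw counts of 1, 5 and 5 in shBrca2 and of 22, 15 and 20 in shControl libraries. It fell by 2.31 ± 0.70 on the log2 scale (SE; adjusted p = 0.0678). With 5 libraries it was called in 0 of 6 fits, with adjusted p-values of 0.145 to 0.310 in 4 of them and none in the other 2, although the log2 fold change stayed between -2.56 and -2.00. DESeq2 with all 6 libraries also gave it no adjusted p, and so no call, under TMM scaling, total-count scaling and removal of ribosomal protein genes, so that it was called in 5 of 8 such alternatives.

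The other genes of this list with the smallest p-values were not called. Furin, the protease that cleaves the TGF-β propeptide, had a log2 value of -0.31 (adjusted p = 0.753). Itgb1 and Itgb5, subunits of integrins that bind the latent complex, had -0.24 (adjusted p = 0.772) and -0.28 (adjusted p = 0.852). Itgb1 was lower in every shBrca2 library than in every shControl library, by a small margin.

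Of 10 tested receptor partners DESeq2 and edgeR both called 0, and 1 had an unadjusted p under 0.05, as 8.66% of all genes tested did. That partner was Pmepa1, a membrane protein that holds Smad2 and Smad3 away from the receptor and is itself induced by TGF-β. It had normalized counts of 65.4, 71.8 and 63.5 in shBrca2 and of 122.3, 84.7 and 138.4 in shControl libraries, which did not overlap. On the log2 scale the value was -0.78 ± 0.26 (SE; adjusted p = 0.163), and without shControl replicate 2 it was -0.96 with an adjusted p of 0.0891. Without shControl replicate 3 it was -0.63 (adjusted p = 0.618 by DESeq2). Pmepa1 was called in 1 of 6 fits that left out a library and in 0 of 8 other alternatives. Tgfbrap1, which binds the receptors and Smad4, had 87.2, 70.9 and 72.2 normalized counts in shBrca2 and 52.5, 63.7 and 52.4 in shControl libraries. The shBrca2 values were all higher, but its adjusted p was 0.718. Zfyve9, which anchors Smad2 at endosomes, had an adjusted p of 0.815 at a mean of 5.11 normalized counts.

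Of 17 tested Smad regulators DESeq2 and edgeR again called 0, and 2 had an unadjusted p under 0.05, against 8.66% of all genes tested. Sp1, a transcription factor that works with Smads, had 118.5, 88.9 and 127.0 normalized counts in shBrca2 and 54.6, 96.4 and 68.2 in shControl libraries, which overlapped (log2 fold change 0.60, adjusted p = 0.468). Ep300, a histone acetyltransferase recruited by Smad3, had 147.1, 105.9 and 110.5 against 100.03, 95.6 and 45.5 (log2 fold change 0.58, adjusted p = 0.555). Its groups did not overlap, and shControl replicate 3, the library that stands apart on the first principal component, was far below the rest. Without it the log2 value of Ep300 was 0.30, and with 1 surrogate variable it was 0.31. Ski, a Smad co-repressor, differed by -0.41 on the log2 scale (adjusted p = 0.824).

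Of 12 tested genes of the BMP and activin branch DESeq2 called 0 and edgeR called 1, and 1 had an unadjusted p under 0.05 (8.66% among all genes tested). In each case the gene was Fstl3, a secreted protein that binds and neutralizes activin. It had 23.2, 28.4 and 21.8 normalized counts in shBrca2 and 50.5, 61.2 and 45.5 in shControl libraries, so that every shBrca2 value was far below the lowest shControl value. Its log2 value was -1.10 ± 0.35 (SE). The adjusted p was 0.118 in DESeq2 and 0.0629 in edgeR, and DESeq2 also called Fstl3 with TMM scaling (0.0914), total-count scaling (0.0941) and ribosomal protein genes removed (0.0961). With edgeR included, Fstl3 was called in 4 of 8 alternatives that kept all libraries. It was called in 0 of 6 fits that left out a library, with adjusted p-values by DESeq2 of 0.152 to 0.653. Fstl3 overlaps the gene Prss57, and how reads were shared between them is not given in the sources used here. Acvr1, a type I receptor for BMPs, and the ligand Bmp2 had adjusted p-values of 0.752 and 0.855. Smad1 and Smad5, the receptor-regulated Smads of the BMP branch, are added here with their values already known. Their means were 54.6 ± 6.03 and 116 ± 24.8 in shBrca2 and 54.0 ± 9.38 and 118 ± 8.38 in shControl libraries (SD, n = 3 each), with adjusted p = 0.989 by DESeq2 for both.

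Among 28 tested targets that TGF-β is known to induce, 2 fell, Fn1 and Thbs1, and 0 rose (7.14% called, against 1.27% of all genes tested). For 19 of them (67.9%, against 50.2% of all genes tested) the log2 value was below 0, and the median was -0.21. Normalized counts were lower without overlap for 9 of the 28 (32.1%, against 10.4% of all genes tested) and higher without overlap for 1 (3.57%, against 10.2%). Fn1, encoding the matrix protein fibronectin, had 158.0, 177.7 and 177.5 normalized counts in shBrca2 and 355.7, 291.8 and 303.5 in shControl libraries. It was lower in every shBrca2 library, with means of 171 ± 11.3 and 317 ± 33.98 and a log2 fold change of -0.89 ± 0.18 (SE; adjusted p = 0.000524). Fn1 was called in all 6 fits that left out a library and in all 8 other alternatives. Fibroblasts also express Fn1. The summed fibroblast markers were highest, at 42.4, in shControl replicate 1, which also had the highest Fn1. In shControl replicates 2 and 3 Col1a2 stood at 10.1 and 7.91 and Thy1 at 5.03 and 5.93. The shBrca2 libraries had 10.9 to 17.0 of Col1a2 and 5.67 to 6.96 of Thy1. Without shControl replicate 1 the log2 fold change of Fn1 was -0.80 (adjusted p = 0.0133 by DESeq2). The part of fibroblasts in the difference was not tested.

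The matrix genes Col4a1 and Col4a2, which encode the chains of the main basement membrane collagen, were not called. Col4a1 had 316.0, 277.9 and 274.1 normalized counts in shBrca2 and 393.05, 386.6 and 384.6 in shControl libraries, without overlap (log2 fold change -0.43, adjusted p = 0.291). Col4a2 had the same log2 fold change, -0.43, but its groups overlapped (adjusted p = 0.450). It was called lower with 1 surrogate variable (-0.61, adjusted p = 0.0253), and its log2 value was -0.27 without shControl replicate 1. The mesenchymal genes of the list were looked at after their values were seen. Vim, encoding vimentin, had means of 8361 ± 837 and 9155 ± 1040, a fold between 0.751 and 1.11 at 95% and an adjusted p of 0.906. Cdh2, Zeb1, Snai2 and Twist1 had log2 fold changes of -0.12, 0.46, 0.99 and -0.64, with adjusted p-values from 0.658 to 0.982. Their mean normalized counts were low, at 39.2, 22.7, 16.3 and 13.5, and the SEs were 0.35, 0.50, 0.56 and 0.55. For Snai2 the 95% interval ran from a fold of 0.930 to 4.25. Zeb1 stood at 6.92 in shControl replicate 3, against 31.3 and 19.3 in shControl replicates 1 and 2.

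**Figure D4:**
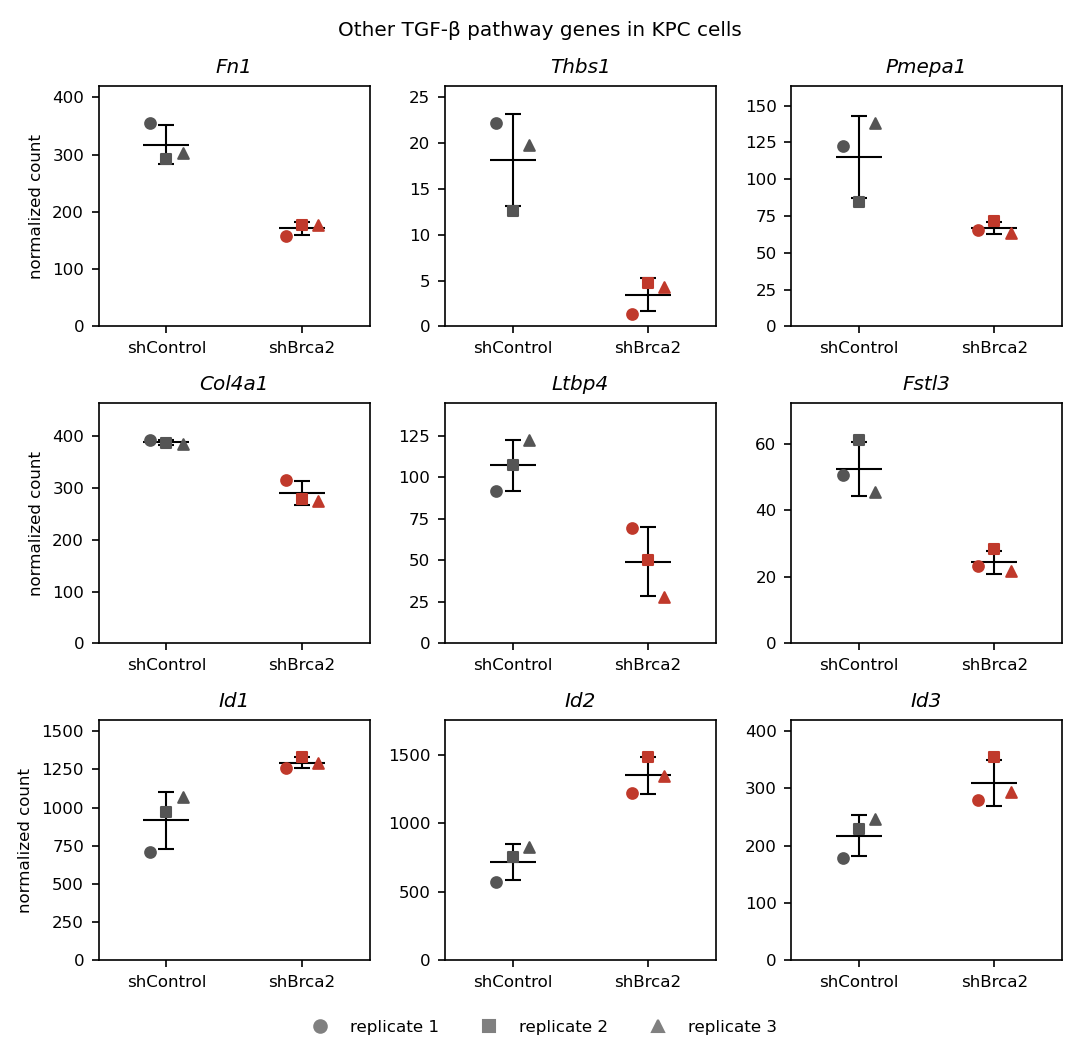
Normalized counts (y axis) of 9 other pathway genes in each shControl (grey) and shBrca2 (red) library, with marker shapes for replicates, a long bar for the mean of 3 libraries and whiskers for 1 SD. The panels are a selection of named genes whose groups do not overlap. Others, such as Ep300, without overlap, and Col4a2, with overlap, are not shown. By the adjusted p and fold rule Fn1, Thbs1 and Ltbp4 fell, Id2 rose, and Pmepa1, Col4a1, Fstl3, Id1 and Id3 were not called.

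Among 9 tested targets that TGF-β is known to repress in epithelial cells, 1 rose and 0 fell (11.1% called, against 1.27% of all genes tested). The log2 value was above 0 for 5 and below 0 for 4 of them (44.4%, against 50.2% of all genes tested). The median, 0.32, was the value of Cdh1. Normalized counts were higher without overlap for 3 of the 9 (33.3%, against 10.2% of all genes tested), and these 3 were Id1, Id2 and Id3. The Id proteins bind basic helix-loop-helix factors and keep them off DNA, and their genes are induced by BMP signals. Id2 had 1220, 1488 and 1344 normalized counts in shBrca2 and 569.9, 756.4 and 829.6 in shControl libraries. The lowest shBrca2 library was well above the highest shControl library, and the means of 1351 ± 134 and 719 ± 134 gave a fold of 1.88 (95% interval 1.497 to 2.36; adjusted p = 4.46e-05). Id2 was called in all 6 fits without 1 library and in all 8 other alternatives.

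Id1 had 1260, 1333 and 1291 normalized counts in shBrca2 and 709.3, 971.9 and 1068 in shControl libraries, and Id3 had 280.6, 355.4 and 293.2 against 177.8, 228.9 and 246.2. Both had the same order of groups as Id2, with log2 fold changes of 0.50 ± 0.17 and 0.51 ± 0.19 (SE), but neither was called, at adjusted p-values of 0.157 and 0.283. Without shControl replicate 3 Id1 was past the threshold, at 0.62 with an adjusted p of 0.0821. With 1 surrogate variable both passed it, with adjusted p-values of 0.00327 and 0.0364. Of 6 fits that left out a library, Id1 was called in 1 and Id3 in 0. Without shControl replicate 1 the log2 values were lower, 0.34 for Id1 (adjusted p = 0.365 by DESeq2) and 0.38 for Id3 (0.525). Cdh1, encoding the epithelial adhesion protein E-cadherin, had means of 1012 ± 180 and 811 ± 175 (SD, n = 3 each) and an adjusted p of 0.690 by DESeq2. Its log2 value of 0.32 was 0.15 without shControl replicate 1 and 0.43 without shControl replicate 3.

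Promoter sequences are shown for the 2 TGF-β genes whose groups did not overlap, Tgfb1 and Tgfbr1. They are also shown for Id2 and Id3 of the repressed list, which were chosen after their values were seen. The promoter sequences used held none for Id1, and the other genes of that list are not shown. Each is the 250 bases before the transcription start, 5′ to 3′ on the gene's strand, from RefSeq on GRCm38.p6. Capitals mark the Smad-binding element CAGAC, or GTCTG on the other strand, and the GC-rich palindrome GGCGCC that Smads of the BMP branch can bind.
Tgfb1, chr7:25686752-25687001, plus strand: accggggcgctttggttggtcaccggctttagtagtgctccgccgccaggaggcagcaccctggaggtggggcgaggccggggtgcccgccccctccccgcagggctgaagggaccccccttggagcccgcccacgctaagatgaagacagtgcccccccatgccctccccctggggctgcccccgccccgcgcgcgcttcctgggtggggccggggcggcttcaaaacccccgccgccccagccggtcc
Tgfbr1, chr4:47352972-47353221, plus strand: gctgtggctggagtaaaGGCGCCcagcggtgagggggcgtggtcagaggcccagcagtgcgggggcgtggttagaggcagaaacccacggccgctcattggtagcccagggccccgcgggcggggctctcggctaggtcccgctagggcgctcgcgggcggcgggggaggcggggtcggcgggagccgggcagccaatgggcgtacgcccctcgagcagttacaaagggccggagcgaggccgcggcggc
Id2, chr12:25096093-25096342, minus strand: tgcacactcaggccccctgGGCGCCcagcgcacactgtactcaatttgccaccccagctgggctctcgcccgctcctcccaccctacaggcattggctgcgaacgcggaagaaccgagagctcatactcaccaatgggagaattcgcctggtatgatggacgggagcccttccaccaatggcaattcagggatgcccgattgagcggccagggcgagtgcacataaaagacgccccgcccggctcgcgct
Id3, chr4:136143572-136143821, plus strand: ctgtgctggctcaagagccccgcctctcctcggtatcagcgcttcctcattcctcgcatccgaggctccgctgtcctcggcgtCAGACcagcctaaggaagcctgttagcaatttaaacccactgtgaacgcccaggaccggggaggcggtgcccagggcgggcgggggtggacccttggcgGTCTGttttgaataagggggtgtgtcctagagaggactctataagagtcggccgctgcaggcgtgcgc
Tgfb1 held neither motif. Tgfbr1 and Id2 each held 1 GGCGCC, 233 and 231 bases before the start, and Id3 held a CAGAC 167 bases and a GTCTG 68 bases before it. Tgfbr2, whose groups overlapped and whose sequence is not printed, held a CAGAC 160 bases before its start. Of 32851 windows of the same length, 42.2% held CAGAC or GTCTG and 9.59% held GGCGCC, so that such matches are common and are given as a description only. For Tgfbr1 the table has 2 starts, and the one furthest upstream was used.

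The genes whose levels followed Tgfb1 most closely over the 6 libraries were Bok, 1110008P14Rik and Tpm1, with Pearson's r of 0.995, 0.986 and 0.984 for log2(normalized count + 1) among 5680 genes with a mean of at least 50. Those that ran most opposite to it were Ehd4, Tgoln2 and Lima1, each with r = -0.987. These values describe the 6 libraries only. In shBrca2 replicate 3, which had the lowest value of Tgfb1, Bok had 280.2 normalized counts, against 513.3 to 748.7 in the other libraries, and Lima1 had 450.7, against 294.0 to 346.0.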

How the data were processed

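RNA-seq of 6 libraries of KPC cells, 3 shBrca2 and 3 shControl as grouped by the labels, was analysed from the table of raw counts per gene symbol that the authors deposited, which is neither normalized nor pooled. The submitters' processing notes name bcl2fastq, cutadapt, STAR 2.4.2a, HTSeq, DESeq2 and mm10. The annotation, the use of strand and of molecular identifiers, and the filter that left 10616 genes are not given in the sources used here. The SEs and intervals rest on the counts and their spread between these libraries. They do not cover errors from those steps. The depth was 1519340 to 2452467 counts per library.

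Counts were tested over the whole table with DESeq2 1.42.0 (R 4.3.3; median-of-ratios size factors, likelihood ratio test, group against intercept only), with Benjamini-Hochberg adjustment over the 9997 genes that passed independent filtering at a mean of 4.64. Test and thresholds (adjusted p under 0.1, absolute log2 fold change over 0.5, mean over 5) follow the study's methods. Fold changes are shBrca2 over shControl, unshrunken, with Wald intervals at 95%. Alternatives were edgeR 4.0.16 (quasi-likelihood), the Wald test, TMM or total-count scaling, at least 10 counts in 3 libraries, no low-count filter, removal of 92 ribosomal protein genes, 1 surrogate variable (sva 3.50.0) and each library left out. The scripts were tested on simulated data.

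Named genes were the 9 TGF-β genes, Brca2, and in each list the called genes and the 3 others with the smallest p at a mean over 5. Others are named as chosen after their values were seen. The members and lists were chosen with earlier results of these data known, and 1 listed gene is not reported here and was left out of the counts over the lists.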

Additional observations from a re-analysis of the deposited data

How the results depend on the processing

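Of 114 comparisons of the 9 TGF-β genes between the values above and an alternative, 108 kept the direction and the side of the threshold, and 6 reversed in direction without passing it. The reversals were Tgfbr2, at 0.013 without shBrca2 replicate 2 (range over the libraries left out -0.26 to 0.013), and Smad7, at 0.088 with 1 surrogate variable and from -0.16 to 0.10 over the libraries left out. The number of the 9 genes called was 0 under every alternative run. Of 267 comparisons of the 21 other named pathway genes, 9 lost and 9 gained the call, and 0 changed direction. Not counted are 12 comparisons of the TGF-β genes and 27 of the others in which a fit gave no adjusted p or left the gene out, 5 of them of Thbs1, which was then not called. With TMM scaling Brca2 had none either. The number of pathway list genes called, 4, was 7 with 1 surrogate variable (3 higher, 4 lower) and 2 to 3 over the libraries left out, with 2 without shBrca2 replicate 2 or 3. The share of all genes called in each of those fits is not given here. The log2 fold change of Brca2 was -1.70 to -1.46 over the libraries left out. The cause of these changes was not tested. No paired analysis was possible because the labels give no replicate numbers; those used here follow the order of the samples and pair nothing. Tgfb3, Smad2, Smad4, Thbs1, Bmp2 and Zfyve9 had a mean under 20 normalized counts. So did Snai2, Twist1, Trim33 and Rnf111, which were picked after their values were seen, and the markers Epcam, Col1a2, Thy1 and Cd68.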

Other observations

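Klf10, an early gene induced by TGF-β that was looked at after its values were seen, had 83.9, 52.0 and 8.90 normalized counts in the shControl libraries and 65.4, 36.9 and 67.0 in the shBrca2 libraries (log2 fold change 0.22, adjusted p = 0.986 by DESeq2). The low value was that of shControl replicate 3. Trim33, Zeb1 and Rnf111 were also picked after their values were seen. For Trim33, an E3 ligase that acts on Smad4, shControl replicate 3 was the lowest of the 6 libraries, at 3.96 against 12.3 to 27.3. It was also the lowest for Zeb1, a repressor of epithelial genes, at 6.92 against 19.3 to 32.1. Rnf111, an E3 ligase that removes Ski and Smad7, stood at 3.96 in it against 8.51 to 35.4 elsewhere. Of the 9 TGF-β genes none was lowest in this library, and 3 were highest in it.

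Of the ductal markers, Krt7, a keratin of simple epithelia, and Sox9, a ductal transcription factor, rose in shBrca2 cells, while the other 7 of the 9 analysed here were not called. Of these Cdh1 had a log2 value of 0.32, and Krt8, Krt18, Krt19, Epcam, Muc1 and Spp1 had values of -0.17, -0.12, -0.06, -0.55, -0.25 and -0.34. Krt18 was lower in every shBrca2 library, by a small margin. Sox9 had 54.5, 69.0 and 92.2 normalized counts in shBrca2 and 25.3, 26.8 and 42.5 in shControl libraries, which is 2.30-fold (adjusted p = 0.0391). Krt7 was 2.31-fold higher (adjusted p = 2.07e-06). Their part in the values of the TGF-β genes was not tested.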
